A study of Mus musculus with 50 samples.

Results

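The STAT transcription factor genes were described in hippocampal microglia, the resident macrophages of the brain. The members were the 6 genes Stat2, Stat3, Stat4, Stat5a, Stat5b and Stat6, chosen by symbol among the 53700 genes of the count tables. Microglia were sorted as CD45int CD11b+ cells from 50 male C57BL/6J mice, and each mouse gave 1 RNA-seq library. P9 mice had been raised under control conditions (P9-CTR, n = 12) or with limited nesting and bedding material as early-life stress (P9-ELS, n = 13) and were not injected. Adult mice of the same rearing conditions received PBS (P200-CTR-PBS, n = 7, and P200-ELS-PBS, n = 6) or 1 mg/kg LPS, a bacterial cell wall component (P200-CTR-LPS, n = 7, and P200-ELS-LPS, n = 5). The adults were killed a few hours after the injection, so the LPS values are for that early time only. Myelin was removed with Percoll in adult tissue and not at P9, so the injection and the preparation cannot be told apart from age. Whole litters were assigned to a rearing condition. The mouse labels hold a number before a point that the sources do not define, here called the label number, and within an age each number had 1 rearing condition.

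STAT proteins are cytoplasmic transcription factors that carry the signals of cytokine receptors to the nucleus. A cytokine brings receptor chains together, the JAK kinases bound to them phosphorylate a STAT, and paired STATs enter the nucleus and bind DNA. STAT2 pairs within the type I interferon complex ISGF3 with IRF9, STAT3 serves the IL-6 and IL-10 families, STAT4 serves IL-12, STAT5A and STAT5B serve growth factor cytokines such as GM-CSF, and STAT6 serves IL-4 and IL-13. Activation is by phosphorylation, which RNA counts do not measure. SOCS proteins, which many STATs induce, shut the receptors down again.

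On GRCm39, the build of the counts, Stat2 lies at chr10:128106352-128128735 on the plus strand and Stat6 at chr10:127477821-127496862, also on the plus strand. Stat4 lies at chr1:52026307-52151423 on the plus strand. The other members form a cluster on chromosome 11. Stat5b is at chr11:100671556-100741589 on the minus strand, Stat5a at chr11:100750177-100776065 on the plus strand and Stat3 at chr11:100775924-100830450 on the minus strand. Stat5b and Stat5a are 8587 bases apart, and the 3′ ends of Stat5a and Stat3 overlap by 142 exon bases on opposite strands. Whether strand was used in the counting is not stated, so reads in those 142 bases cannot be assigned with certainty, and the same holds for 77 exon bases that Stat6 shares with Nab2. The lncRNA gene Gm28177 shares 1033 exon bases with Stat4 on the same strand, where reads are ambiguous under any strand setting. Antisense lncRNA genes share 554 exon bases with Stat3 (Gm46295), 470 with Stat5a (Gm72578) and 2649 with Stat4 (Gm31812).

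RefSeq promoter windows of GRCm38.p6, reaching from 250 bases before to 50 bases after an annotated start, were found for all 6 members, with 9 windows in all. They were searched on both strands for the letters bound by STAT pairs (GAS, TTCNNNGAA or TTCNNNNGAA) and for the core of the interferon-stimulated response element bound by ISGF3 (ISRE, GAAANNGAA). The windows of Stat2 and Stat3 are shown because these were the members that rose after LPS, with matches in capitals. The Stat2 window is chr10:128270248-128270547 on the plus strand and the Stat3 window is chr11:100939491-100939790 on the minus strand.
Stat2: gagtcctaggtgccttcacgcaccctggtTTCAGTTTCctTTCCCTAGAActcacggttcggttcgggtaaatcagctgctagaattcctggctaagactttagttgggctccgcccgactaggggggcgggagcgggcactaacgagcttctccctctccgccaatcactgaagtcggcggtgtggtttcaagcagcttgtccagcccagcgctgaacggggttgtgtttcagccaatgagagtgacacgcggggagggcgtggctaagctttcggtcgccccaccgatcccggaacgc
Stat3: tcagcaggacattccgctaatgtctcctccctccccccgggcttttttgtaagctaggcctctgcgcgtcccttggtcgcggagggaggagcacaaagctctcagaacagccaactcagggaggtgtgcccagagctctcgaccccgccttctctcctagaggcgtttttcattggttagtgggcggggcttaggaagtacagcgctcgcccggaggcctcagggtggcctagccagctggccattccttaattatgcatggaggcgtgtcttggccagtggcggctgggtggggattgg
The Stat2 window held an ISRE core on its minus strand, 221 to 213 bases before the start, and a GAS with 4 bases between its ends, 210 to 201 bases before the start. Of all 32851 windows, 8.56% held an ISRE core, 6.95% a GAS with 4 bases between and 8.3% a GAS with 3 bases between. The Stat3 window held neither set of letters. Among the other members, 1 of the pair of Stat4 windows held an ISRE core, and the Stat5a, Stat5b and Stat6 windows held none of the letters. A match is a description of letters and not of binding.

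Stat5a and Stat5b are neighbouring copies of an ancestral gene, and their second windows shared letters around the start. The 90 bases shown run from 70 bases before the start, at chr11:100860414-100860503 on the plus strand for Stat5a and chr11:100822551-100822640 on the minus strand for Stat5b (GRCm38.p6). Capitals mark shared runs of at least 12 bases.
Stat5a: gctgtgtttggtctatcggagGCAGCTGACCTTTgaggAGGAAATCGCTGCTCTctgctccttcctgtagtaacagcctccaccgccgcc
Stat5b: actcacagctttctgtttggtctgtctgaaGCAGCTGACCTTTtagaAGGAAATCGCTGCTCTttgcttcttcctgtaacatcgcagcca
The runs were 13 and 16 bases long. The 16-base run was in 2 of the 32851 windows, those of the members themselves, and the 13-base run was in 3.

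Libraries held between 5152838 and 42231258 counted reads (median 19960410). A count above 0 was found for 16485 to 21100 genes in 47 mice and for 12482 to 15731 genes in 3 mice (P9_19.2_ELS, P9_19.3_ELS and P200_1.1_CTR_PBS, called mouse 1.1 in the rest of the text), which stand apart. Apart from the correlations over P9 mice, calls and ratios of the members that rest on these 3 mice are given with and without them. Group means and fold changes of other genes include these mice and, Il27ra aside, were not computed without them. The microglia markers Cx3cr1 and P2ry12 were found in every mouse, and the summed level of 10 microglia markers ranged from 32589 to 77623 CPM (counts scaled to a library of 1e+06 with TMM factors). Genes with at least 1 CPM in at least 3 of the 50 mice were tested, which left 16696 genes and 5 of the 6 members. Stat4 did not reach this level. A gene was called with an adjusted p (edgeR's quasi-likelihood test, Benjamini-Hochberg over all tested genes) under 0.05. Values are for bulk cells, in which fewer expressing cells and less RNA per cell cannot be told apart, and the p-values measure the spread between mice, some of which may be litter mates.

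Levels of different genes were compared as CPM per kb of summed exon length. In P9-CTR mice Stat6 (19.5 ± 4.43, SD, n = 12) and Stat3 (19.34 ± 2.83) were the most abundant members, and Stat6 was above Stat3 in 6 of 12 mice. Both were above the next member, Stat2, in all 12 mice, and their ranges did not overlap with it. Stat2 (3.46 ± 1.17 CPM per kb), Stat5b (2.86 ± 0.67) and Stat5a (1.48 ± 0.48) followed with overlapping ranges. P9-ELS mice had the same order.

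In adults given PBS, Stat6 led. Its level was 25.8 ± 5.66 CPM per kb in P200-CTR-PBS, above Stat3 (18.26 ± 3.63) in 7 of 7 mice, and 31.8 ± 9.46 in P200-ELS-PBS, above Stat3 (20.7 ± 3.03) in 6 of 6 mice. Stat5b came next in both groups, above Stat2 in every mouse with overlapping ranges. After LPS, Stat3 led at 73.0 ± 29.5 CPM per kb in P200-CTR-LPS (n = 7) and 71.2 ± 31.2 in P200-ELS-LPS (n = 5). It was above Stat6 in every LPS mouse, and Stat2 stood above Stat5b in every LPS mouse. Within each mouse, Stat3 made up 34.4% ± 6.60 of the summed length-scaled level of the 6 members in P200-CTR-PBS and 61.4% ± 6.58 in P200-CTR-LPS, while the share of Stat6 was 47.8% ± 4.84 and 21.4% ± 5.37. With the length of the canonical transcript in place of all exons, a setting chosen after seeing the data, Stat3 came before Stat6 at P9, and the order in the 4 adult groups was the same.

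**Figure D1:**
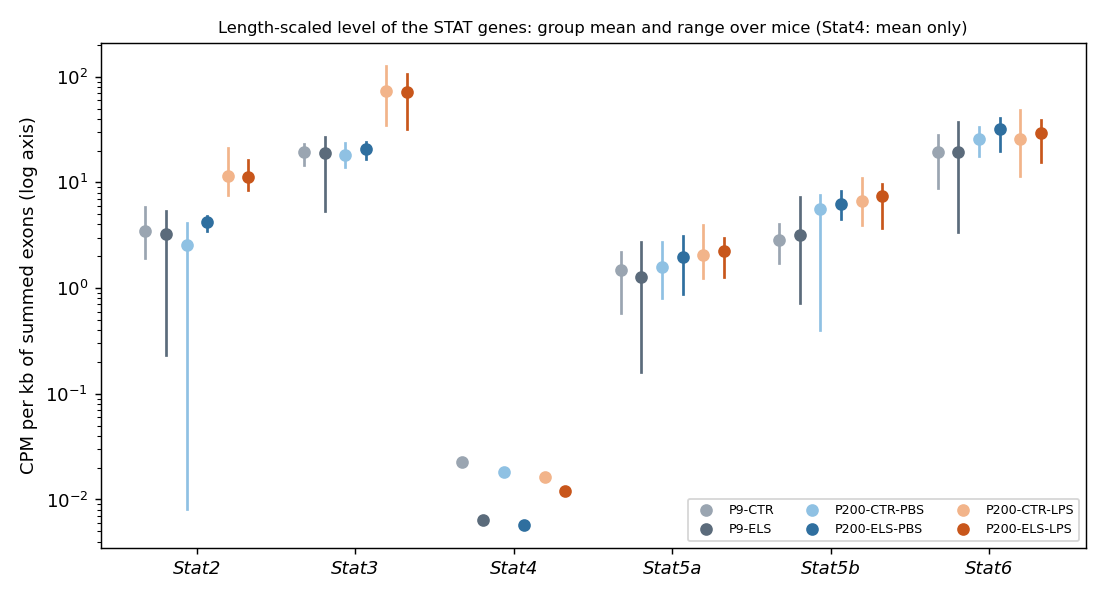
Length-scaled level of the 6 STAT genes (vertical log axis, CPM per kb of summed exons) in the 6 groups, with a point for the group mean and a line for the range over mice. Stat3 is below Stat6 in the PBS groups and stands at 73.0 and 71.2 CPM per kb in the LPS groups, and Stat4 (mean only, since most mice had 0 counts) lies far below the other members.

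Stat2 and Stat3 rose in both rearing conditions, and Stat5a, Stat5b and Stat6 were not called in either. Stat3 is the member on which IL-6, IL-10 and oncostatin M signalling converge. In P200-CTR-PBS mice its lowest, median and highest levels were 141, 195 and 239 CPM, and in P200-CTR-LPS mice they were 353, 680 and 1267 CPM. In P200-ELS-PBS mice they were 169, 203 and 245 CPM. The 5 P200-ELS-LPS mice were at 320, 466, 845, 883 and 1081 CPM. Every LPS mouse was thus above every PBS mouse of its rearing condition, although the LPS mice spread widely.

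The log2 fold change of Stat3 was 2.00 (SE 0.23, adjusted p = 2.39e-09) in CTR, a 4.00-fold increase, and 1.78 (SE 0.26, adjusted p = 6.17e-07) in ELS, a 3.44-fold increase. In CTR 8.73% of all tested genes were called higher and 6.20% lower, and in ELS 7.40% were called higher and 4.94% lower. By the study's rule, which also asks for a log2 fold change above 1, 6.02% of genes rose in CTR and 4.69% in ELS, and Stat2 and Stat3 passed this rule in both. Groups without overlap in the direction of an increase, as for Stat2 and Stat3, were found for 4.92% of genes in CTR and 5.65% in ELS. Ordered by p-value among the genes with a positive log2 fold change, Stat3 held rank 131 in CTR and 194 in ELS, and Stat2 held rank 484 and 1128. Within label numbers, Stat3 was higher in LPS than in PBS mice on the log2 CPM scale in 5 of 5 CTR numbers, by 1.07 to 2.14, and in 5 of 5 ELS numbers, by 0.39 to 2.38.

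Stat2, the partner of IRF9 in the interferon complex, was present at lower counts. In P200-CTR-PBS mice its lowest, median and highest levels were 0.051, 13.5 and 26.1 CPM, the lowest being mouse 1.1 with 1 count, and the other 6 mice lay between 12.8 and 26.1 CPM. P200-CTR-LPS mice ranged from 47.9 over a median of 61.2 to 134 CPM. P200-ELS-PBS mice were close together at 22.1 to 30.6 CPM with a median of 27.4, and the 5 P200-ELS-LPS mice were at 53.6, 57.3, 65.5, 72.4 and 104 CPM. Within each rearing condition the LPS mice were again all above the PBS mice.

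The log2 fold change of Stat2 was 2.16 (SE 0.43, adjusted p = 0.000164) in CTR, a 4.48-fold increase. It was 1.94 (adjusted p = 1.53e-05) without mouse 1.1, and 3.02 in limma's voom fit of all mice with the label number as a random effect. In ELS it was 1.40 (SE 0.47, adjusted p = 0.0381), a 2.64-fold increase. This call in ELS was close to the threshold. It was lost when any 1 of 9 of the 11 mice was left out, namely P200_2.1_ELS_PBS, P200_4.1_ELS_PBS, P200_11.1_ELS_PBS, P200_17.1_ELS_PBS, P200_17.2_ELS_PBS, P200_20.2_ELS_PBS, P200_2.2_ELS_LPS, P200_17.3_ELS_LPS or P200_20.1_ELS_LPS, with adjusted p from 0.0396 to 0.111 over all 11. It was also lost when counts were summed per label number (adjusted p = 0.0556). Without the 3 mice of few detected genes, which enter the shared estimate of the spread, the log2 fold change was again 1.40 and the adjusted p was 4.88e-05. Within label numbers Stat2 was higher after LPS in 5 of 5 CTR numbers, by 1.53 to 8.94 on the log2 scale with the largest value in the number of mouse 1.1, and in 5 of 5 ELS numbers, by 0.90 to 2.23.

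Stat6, the IL-4 and IL-13 factor and the most abundant member before LPS, ranged from 118 over 174 to 224 CPM in P200-CTR-PBS and from 77.4 over 131 to 322 CPM in P200-CTR-LPS. Its log2 fold change was 0.01 (SE 0.28, adjusted p = 0.998) in CTR and -0.13 (SE 0.32, adjusted p = 0.857) in ELS, and the groups overlapped. Stat5a had 0.37 (SE 0.37, adjusted p = 0.601) in CTR and 0.18 (SE 0.42, adjusted p = 0.852) in ELS. Stat5b had 0.26 (SE 0.33, adjusted p = 0.691) and 0.26 (SE 0.38, adjusted p = 0.731). The 95% intervals in CTR and ELS ran from -0.55 to 0.56 and from -0.76 to 0.50 for Stat6, from -0.36 to 1.095 and from -0.65 to 1.00 for Stat5a, and from -0.39 to 0.91 and from -0.48 to 0.99 for Stat5b.

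**Figure D2:**
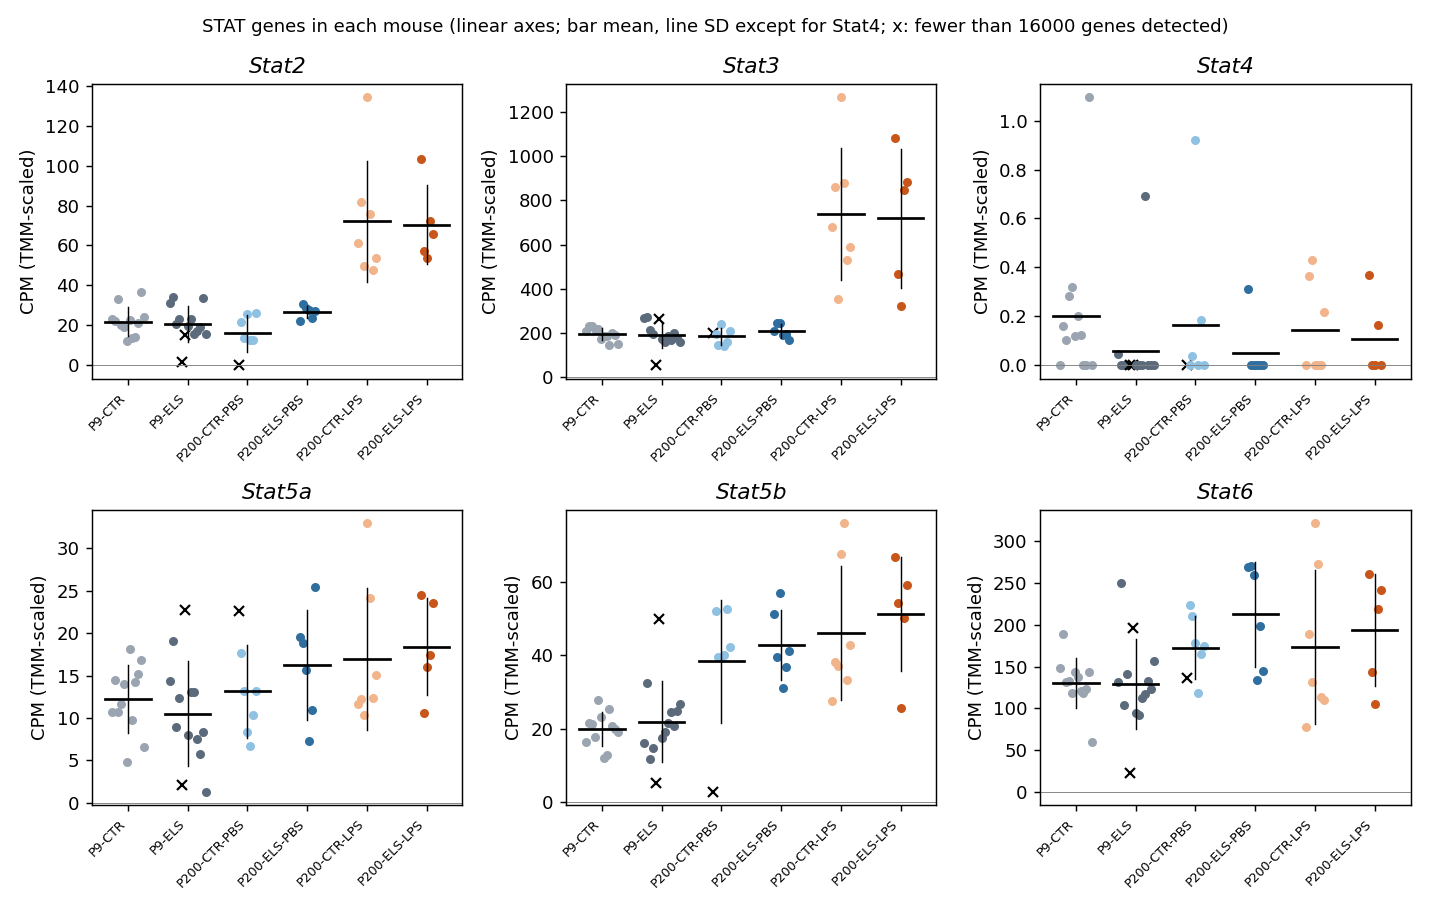
TMM-scaled CPM (vertical linear axes) of each STAT gene in each of the 50 mice by group, with the mean as a bar and the SD as a line except for Stat4. Crosses are the 3 mice with few detected genes. The LPS groups of Stat2 and Stat3 lie above the PBS groups without overlap, the adult means of Stat5b (38.4 CPM or more) lie above the P9 means (19.8 and 21.9 CPM), and Stat4 stays at or under 1.097 CPM.

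Markers of other cell types were set beside these values. Of 9 monocyte and neutrophil markers, Ly6c2, Ly6g and Retnlg were at 0 in every P200-CTR-PBS and P200-CTR-LPS mouse, and the summed level ranged from 0.712 to 8.48 CPM with PBS and from 1.95 to 6.79 CPM with LPS. In ELS mice it ranged from 3.38 to 10.9 CPM with PBS and from 0.351 to 13.7 CPM with LPS. The summed level of 10 microglia markers was 71957 to 77411 CPM in P200-CTR-PBS and 59968 to 72498 CPM in P200-CTR-LPS. In CTR 1 of these 10 markers was called higher (Ptprc, 382 to 600 CPM) and 2 lower, Sall1 (302 to 91.1 CPM) and P2ry12 (14399 to 9380 CPM), and 7 were not called. In ELS Sall1 (325 to 80.5 CPM) and P2ry12 (13301 to 8919 CPM) were called lower. Of 6 astrocyte markers 1 was called higher in each condition, Slc1a3 in CTR (356 to 550 CPM) and Gfap in ELS (0.108 to 1.66 CPM). The median summed level was 336 CPM in P200-CTR-PBS and 575 CPM in P200-CTR-LPS, and most of it was Slc1a3. In CTR the means of Aqp4 (0.394 to 0.300 CPM), Aldh1l1 (0.912 to 0.483 CPM) and Slc1a2 (1.51 to 0.852 CPM) were lower with LPS. Those of Gfap (1.28 to 2.03 CPM) and Aldoc (3.48 to 4.90 CPM) were higher, and none of these was called. Of 5 tested endothelial and mural markers 1 was called higher in CTR (Kdr, 4.99 to 24.3 CPM). No neuron or oligodendrocyte marker was called in either condition. The part of these marker changes in the rise of Stat2 and Stat3 was not tested.

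The difference of the LPS response between rearing conditions was tested directly. Of the 5 members, 0 had an interaction of LPS and ELS in the edgeR quasi-likelihood fit, and 0% of all tested genes had one. Unadjusted p-values under 0.05 were found for 0 members and 980 genes, and the likelihood-ratio test, DESeq2 and limma's voom fit called 0 members and 66, 15 and 0 genes. The interaction of Stat2 was -0.76 (SE 0.62, adjusted p = 0.964), and that of Stat3 was -0.22 (SE 0.34, adjusted p = 0.983). Without mouse 1.1 the value of Stat2 was -0.54.

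**Figure D3:**
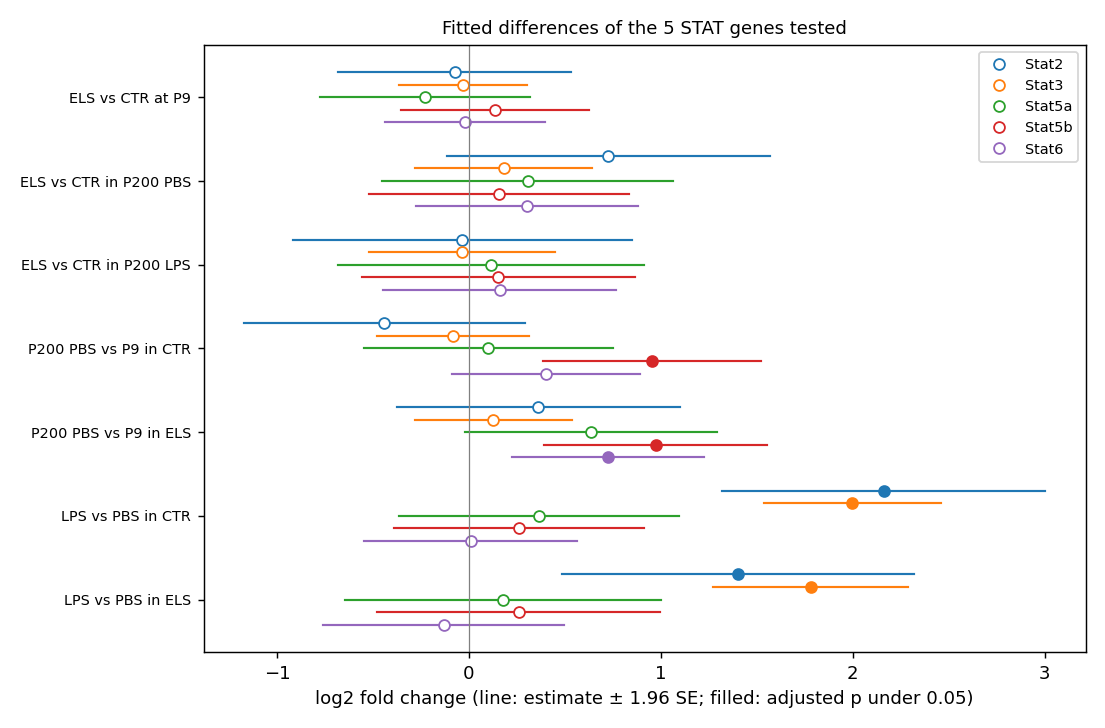
Log2 fold change (horizontal axis) of the 5 tested STAT genes in the 7 comparisons of groups, with a line for the 95% interval and filled points for an adjusted p under 0.05. Stat2 and Stat3 are the filled points in both LPS comparisons, Stat5b is filled in both age comparisons and Stat6 in that of ELS mice, and no point is filled for ELS against CTR.

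ELS was not associated with a called change of any member at P9, in adults given PBS or in adults given LPS. The called share of all genes was 0% at P9, 0.168% in PBS mice and 0% in LPS mice. With edgeR's unadjusted p-values under 0.05, the counts were 0 members and 914, 1622 and 798 genes. The likelihood-ratio test called 0 members and 1, 215 and 10 genes, DESeq2 called 0 members and 0, 178 and 2 genes, and limma's voom fit called 0 members and 0 genes in each. At P9 the log2 fold changes of ELS against CTR lay between -0.23 (SE 0.28, Stat5a) and 0.14 (SE 0.25, Stat5b), and those of Stat3 and Stat6 were -0.03 (SE 0.17) and -0.02 (SE 0.21). Among LPS mice they lay between -0.04 (SE 0.25, Stat3) and 0.16 (SE 0.31, Stat6).

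Among PBS mice all 5 estimates were above 0, from 0.16 (SE 0.34, Stat5b) to 0.73 (SE 0.43, adjusted p = 0.633, Stat2). Stat2 had the widest gap, with a mean of 26.7 ± 3.18 CPM (SD, n = 6) in P200-ELS-PBS against 16.1 ± 9.18 CPM (n = 7) in P200-CTR-PBS. The 95% interval of its log2 fold change reached from -0.12 to 1.57. Without mouse 1.1 the value was 0.51 (adjusted p = 0.926) and that of Stat5b was -0.05, and the groups of both genes overlapped. The intervals at P9 were narrowest for Stat3, from -0.36 to 0.30. They take mice as the units, although the P9-ELS mice held 4 label numbers and the P9-CTR mice 5.

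With age, Stat5b was the member that rose in both rearing conditions. It transmits signals of GM-CSF and other growth factor cytokines. P9-CTR mice ranged from 12.0 over 20.3 to 27.9 CPM and P200-CTR-PBS mice from 2.80 over 40.2 to 52.7 CPM. The lowest adult value was mouse 1.1, and the other 6 adults, at 39.1 CPM or more, were above every P9-CTR mouse. P9-ELS mice ranged from 5.02 over 20.7 to 50.0 CPM and P200-ELS-PBS mice from 31.0 over 40.5 to 56.9 CPM, with the low-detection mice P9_19.2_ELS and P9_19.3_ELS as the lowest and the highest P9 value. The log2 fold change was 0.95 (SE 0.29, adjusted p = 0.00622) in CTR and 0.97 (SE 0.30, adjusted p = 0.0067) in ELS, or 1.16 and 1.03 without the 3 low-detection mice.

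The age comparisons share the PBS groups with the LPS comparisons and were broad, since 44.1% of all genes were called in either direction in CTR and 42.2% in ELS. Of the 5 members 1 was called in CTR and 2 in ELS, all higher. The call of Stat5b in CTR was lost when counts were summed per label number (0.76, adjusted p = 0.120) and with that number as a random effect (0.61, adjusted p = 0.164). Stat6 was higher in adults by 0.72 (SE 0.26, adjusted p = 0.0187) in ELS, where P9 mice ranged from 22.8 over 123 to 250 CPM and adults from 133 over 229 to 271 CPM. This call was lost without P200_2.1_ELS_PBS or P200_4.1_ELS_PBS, with adjusted p of 0.0536 and 0.0553, and the value was 0.68 (adjusted p = 0.00995) without the 3 low-detection mice. In CTR the value was 0.40 (SE 0.25, adjusted p = 0.193).

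Stat2, Stat3 and Stat5a were not called with age. Stat3 was level in the estimates, with -0.08 (SE 0.20) in CTR and 0.13 (SE 0.21) in ELS. Stat5a had 0.10 (SE 0.33) and 0.64 (SE 0.34, adjusted p = 0.126), and Stat2 had -0.44 (SE 0.37) and 0.36 (SE 0.38). When 1 mouse was left out, the value of Stat2 in CTR ran from -0.60 to -0.22. Of the 5 members, 0 had an interaction of age and ELS in the edgeR fit, 0 had an unadjusted p under 0.05, and the likelihood-ratio test, DESeq2 and voom also called 0. Of all genes 0.0299% had one in the edgeR fit, 1712 had an unadjusted p under 0.05, and the other tests called 29, 20 and 0. The largest estimate was that of Stat2, at 0.80 (SE 0.53, adjusted p = 0.631), which was 0.58 without mouse 1.1.

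Markers of other cells moved with age beside these values. The summed level of 5 border-associated macrophage markers was 537 to 918 CPM in P9-CTR and 2.84 to 10.6 CPM in P200-CTR-PBS. Most of the P9 sum was Mrc1, with means of 711 CPM in P9-CTR and 5.76 CPM in P200-CTR-PBS. Lyve1, Cd163, Pf4 and F13a1 had means of 2.93, 1.48, 5.42 and 5.91 CPM in P9-CTR. In CTR all 5 were called lower in adults. The 7 neuron markers summed to 56.0 to 164 CPM in P9-CTR and 2.54 to 11.7 CPM in P200-CTR-PBS. In ELS mice the border-associated macrophage markers summed to 470 to 903 CPM at P9 and 4.14 to 6.08 CPM in PBS adults. In CTR 5 of 6 astrocyte markers were lower in adults and 1, Slc1a3, was higher (120 to 356 CPM), and 4 of 6 tested oligodendrocyte lineage markers were lower. The monocyte marker Ccr2 was higher (0.847 to 5.44 CPM) and the B cell marker Cd79b lower (150 to 45.9 CPM) in CTR. In ELS 5 of 6 astrocyte markers and 2 of 6 oligodendrocyte lineage markers were lower. Their part in the age differences of Stat5b and Stat6 was not tested.

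The balance of Stat5a and Stat5b was measured within each library as the ratio of their counts plus 0.5, which does not depend on depth. Stat5a stayed below Stat5b in 48 of 50 mice. The mean log2 ratio was -0.74 ± 0.70 (SD, n = 12) in P9-CTR and -1.21 ± 1.08 (n = 13) in P9-ELS. With PBS it was -1.28 ± 1.93 in CTR (n = 7), or -1.996 ± 0.442 (n = 6) without mouse 1.1, and -1.48 ± 0.52 in ELS (n = 6). With LPS it was -1.48 ± 0.27 in CTR (n = 7) and -1.47 ± 0.60 in ELS (n = 5). Mouse 1.1 of P200-CTR-PBS was the exception among adults, with 444 Stat5a and 55 Stat5b counts.

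None of the 7 comparisons of this ratio differed beyond the spread of the mice in 2-sided permutation tests, exact except at P9, with adjusted p of 0.984 in each (Benjamini-Hochberg over the 7). That result rested on mouse 1.1 for age in CTR, where the difference of adults from P9 was -0.54 with it (exact permutation p = 0.406) and -1.26 without it (adjusted exact permutation p = 0.0113). Without mouse 1.1 the differences of LPS from PBS in CTR and of ELS from CTR with PBS turned from -0.19 and -0.20 to 0.52 each (adjusted exact permutation p = 0.118 and 0.232).

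**Figure D4:**
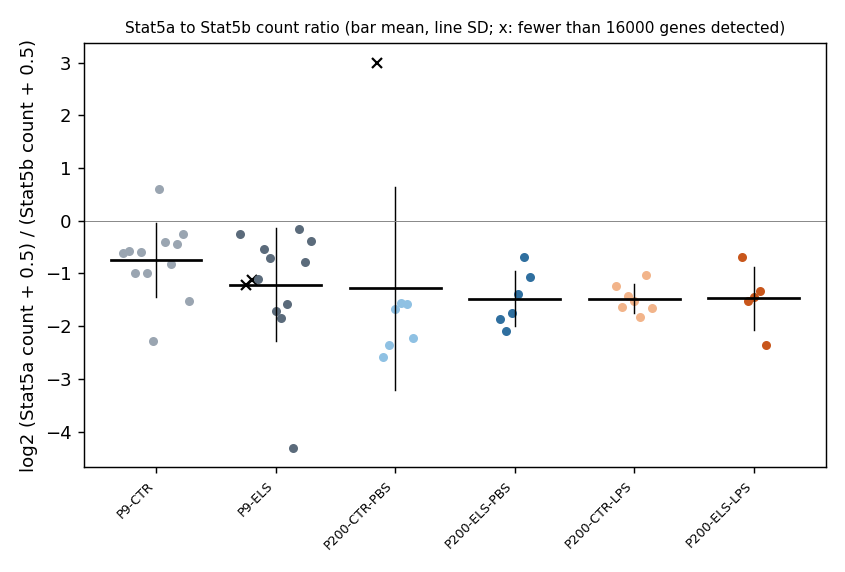
Log2 ratio of Stat5a to Stat5b counts (vertical axis) in each mouse by group, with the mean as a bar, the SD as a line and crosses for the 3 mice with few detected genes. Values lie below 0 in 48 of 50 mice, and mouse 1.1 of P200-CTR-PBS stands alone at 3.00.

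Stat4, the IL-12 factor known from T and NK cells, was close to absent. It had 123 counts over all 50 mice, and 31 mice had a count of 0, which allows a level of up to 0.085 to 0.538 CPM per mouse (3 counts, counting error only). The highest value was 1.097 CPM, from 18 counts in a P9-CTR mouse. A count above 0 was found in 8 of 12 P9-CTR, 2 of 13 P9-ELS, 3 of 7 P200-CTR-PBS, 1 of 6 P200-ELS-PBS, 3 of 7 P200-CTR-LPS and 2 of 5 P200-ELS-LPS mice. Without a filter on low counts it was not called in any comparison, with adjusted p of 0.614 to 1. The 10 T and NK cell markers summed to at most 1.55 CPM in any mouse. Of these, Ncr1 was at 0 in all 50 mice, while Klrb1c reached 1.28 CPM in P9-CTR, where 6 of 12 mice were at 0. The IL-12 receptor chain gene Il12rb2 had means of 3.42 to 6.41 CPM over the 6 groups, and Il12rb1 was at or under 0.094 CPM in each group mean.

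The genes around the STATs were taken as lists of kinases, receptors, ligands, regulators and known targets. They share members with each other, so that the lists are not separate evidence, and many targets also respond to factors other than STATs. In CTR mice the median log2 fold change after LPS was 0.00 over all tested genes, and 0.37 over the 5 tested members. Beside the counts that follow, 8.73% of all tested genes were called higher and 6.20% lower after LPS in CTR. In ELS 7.40% were called higher and 4.94% lower. Among ligands, 4 of 8 tested rose. They were Osm (24.3 to 137 CPM in group means, log2 fold change 2.49, SE 0.24), Il27 (4.14 to 21.2 CPM, 2.35, SE 0.45), Ebi3 (41.2 to 66.6 CPM, 0.69, SE 0.15) and Il12b (9.42, SE 1.14, from 0.076 CPM). OSM signals through STAT3, and IL-27 is a pair of the Il27 and Ebi3 products. The other 20 of the 28 ligands, Ifng and Il4 included, did not reach the level for testing.

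Receptors came next, with 9 of 27 tested called higher and 2 lower in CTR and 7 higher and 1 lower in ELS. Il4ra, the receptor chain that feeds STAT6, rose from 116 to 1253 CPM in CTR (3.43, SE 0.46) and from 170 to 1263 CPM in ELS (2.89, SE 0.50), while Stat6 itself was not called. The common gamma chain gene Il2rg rose by 2.62 (SE 0.28) and 2.75 (SE 0.31), Il15ra by 2.03 (SE 0.24) and 1.38 (SE 0.26), and the GM-CSF receptor chain gene Csf2rb by 1.49 (SE 0.27) and 1.02 (SE 0.30). Il10rb fell by 0.58 (SE 0.11) and by 0.38 (SE 0.12), and Ifngr1 fell by 0.32 (SE 0.09) in CTR. Of the 4 JAK kinases, Jak1 (0.72, SE 0.16) and Jak3 (2.13, SE 0.61) rose in CTR, and none was called in ELS, where the edgeR estimates had a median of 0.44.

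Of 18 negative regulators, 7 rose and 0 fell in CTR, and in ELS 6 rose and 1, Socs6, fell by 0.74 (SE 0.21). The other 11 were not called in each condition, and the medians of the list were 0.47 and 0.59. Socs3, which blocks the IL-6 receptor, went from 19.32 to 1823 CPM in CTR (6.55, SE 0.56) and from 25.3 to 1941 CPM in ELS (6.26, SE 0.60). Socs2, a STAT5 target, went from 0.235 to 60.5 CPM in CTR (7.95, SE 0.72) and from 0.842 to 73.4 CPM in ELS (6.48, SE 0.71). The phosphatase gene Ptpn1 went from 227 to 917 CPM in CTR (2.02, SE 0.17), and Socs1 from 1.08 to 4.80 CPM (2.15, SE 0.54).

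**Figure D5:**
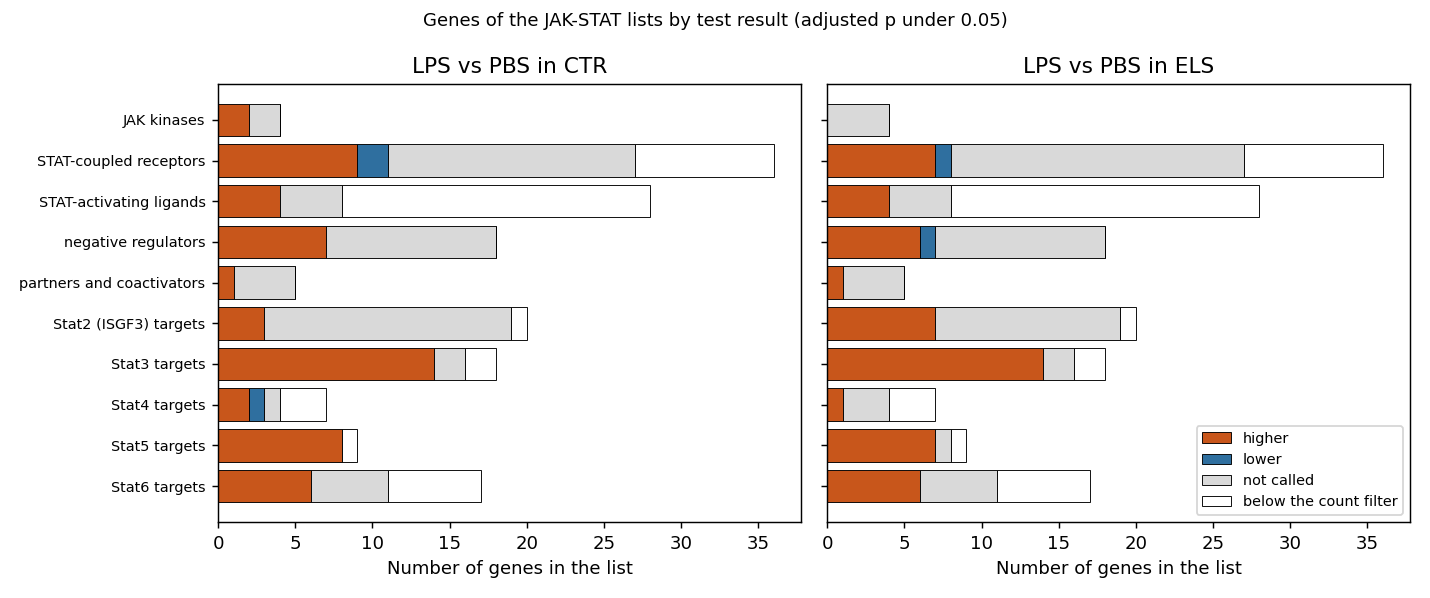
Number of genes (horizontal axis) of each JAK-STAT list that were called higher, called lower, not called or below the level for testing after LPS in CTR (left) and ELS (right). Stat3 and Stat5 targets were mostly called higher (14 of 16 and 8 of 8 tested in CTR), and 3 of 19 tested Stat2 targets were called in CTR and 7 in ELS.

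Of the known Stat3 targets 14 of 16 tested rose in each rearing condition, with a median log2 fold change of 4.02 in CTR and 3.95 in ELS. Il1rn, the interleukin-1 receptor antagonist, went from 0.167 to 93.0 CPM in CTR (8.88, SE 0.87), the kinase gene Pim1 from 0.704 to 67.8 CPM (6.57, SE 0.53) and Sbno2 from 29.5 to 564 CPM (4.25, SE 0.43). The Stat5 targets rose in 8 of 8 tested in CTR and 7 of 8 in ELS, with medians of 3.33 and 2.73, although neither Stat5 gene was called. Besides Socs2, Pim1 and Osm these included Ccnd2, which went from 0.193 to 3.93 CPM in CTR (4.18, SE 0.72). The Stat6 targets rose in 6 of 11 tested in each condition. Those with a mean log2 CPM of at least 1 were Egr2 (13.4 to 195 CPM in CTR, 3.86, SE 0.54), Il4ra and Tgm2 (38.5 to 282 CPM, 2.87, SE 0.54). The others, with a lower mean over all mice, were Cish, Klf4 and Ccl22. Cish went from 0.559 to 68.7 CPM in CTR and from 0.216 to 80.3 CPM in ELS. Klf4 went from 0.298 to 10.1 CPM and Ccl22 from 0.200 to 4.07 CPM in CTR.

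Of 19 tested Stat2 targets, 3 were called higher in CTR, where 8.73% of all genes were, namely Irf9 (0.86, SE 0.16), Ifih1 (0.59, SE 0.18) and Oasl1 (4.53, SE 1.17, from 0.104 to 2.59 CPM). In ELS, where 7.40% of all genes were called higher, 7 of 19 were, Bst2, Irf9, Rtp4, Usp18, Isg15, Ifit1 and Oasl1, with medians of the list of 0.59 in CTR and 1.08 in ELS. The difference between CTR and ELS was not called for any of these genes by the interaction test. Ifit1, an antiviral protein gene, had means of 2.63 and 10.1 CPM in CTR and 1.55 and 14.9 CPM in ELS. Usp18, which restrains the interferon receptor, had means of 17.34 and 16.9 CPM in CTR and 8.47 and 27.0 CPM in ELS. The CTR mean with PBS was raised by mouse 1.1 at 40.2 CPM, and the CTR medians were 13.4 CPM with PBS and 16.8 CPM with LPS. Of the Stat4 targets, 2 of 4 tested rose in CTR (Hlx and Il18rap) and Furin fell by 0.76 (SE 0.19), and 1 of 4 rose in ELS (Il18rap).

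With age, receptors changed in both directions, with 10 of 27 higher and 9 lower in CTR and 10 higher and 6 lower in ELS. Of all tested genes, 44.1% were called in either direction in CTR and 42.2% in ELS. Il7r, the IL-7 receptor that feeds STAT5, was higher in adults by 3.60 (SE 0.47) in CTR and 3.12 (SE 0.46) in ELS. Epor, the erythropoietin receptor, was lower by 5.72 on the log2 scale (41.1 to 0.776 CPM) in CTR, and Il3ra was lower (15.5 to 1.95 CPM). Jak3 fell by 2.43 in CTR (SE 0.59) and by 1.49 in ELS (SE 0.58). Of the Stat5 targets 3 of 8 were higher and 3 lower in both conditions, beside the higher Stat5b. Ccnd2 fell by 6.15 on the log2 scale in CTR and by 4.42 in ELS, Socs2 fell by 3.74 (SE 0.62) in CTR and by 1.38 (SE 0.55) in ELS, and Bcl6 rose by 1.69 (SE 0.19) and 0.61 (SE 0.20).

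Between ELS and CTR, 1 gene of these lists was called. This was the IL-27 receptor gene Il27ra among PBS mice (adjusted p = 0.0466), which was at 0 in every P200-CTR-PBS mouse and in P200-ELS-PBS had a median of 0.170 CPM, a highest value of 3.33 CPM and 2 of 6 mice at 0. The call was lost in 10 of 13 fits without 1 PBS mouse (adjusted p of 0.187 without the highest, P200_2.1_ELS_PBS) and in the voom fit (adjusted p = 0.413), and was kept by the likelihood-ratio test and DESeq2. Of the lists, 0 genes were called at P9, among LPS mice or for an interaction. Of the 5 partners and coactivators, Irf9 was the 1 gene called after LPS in both conditions.

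The genes whose log2 CPM was most like that of a member over the 25 adult mice were sought among 11053 genes. The adult mice include both treatments, so that any gene that answers LPS resembles Stat2 and Stat3, and the values are descriptions. For Stat3 they were Itga5 (Pearson r = 0.966), Icosl (0.965) and Slc2a1 (0.962), and these also followed it over the 25 P9 mice, with r of 0.906, 0.916 and 0.851. For Stat2 they were Mlxip (0.982), Gm39318 (0.979) and Tnip2 (0.976), with 0.285, 0.864 and 0.749 at P9. For Stat6 they were Abcc3 (0.941), Fscn1 (0.920) and Inpp5d (0.919), with 0.923, 0.901 and 0.932 at P9. Stat5b was nearest to Gm16156 (0.950), Adar (0.949) and Gga3 (0.949), and Stat5a to Slc13a3 (0.865), Tmem115 (0.810) and Acvr1b (0.794). The P9 values include the low-detection mice P9_19.2_ELS and P9_19.3_ELS and were not computed without them. Mouse 1.1, with very low Stat2 and Stat5b, enters the adult values. Without it r was 0.921 to 0.927 for the genes of Stat2 and 0.712 to 0.750 for those of Stat5b. Among the members, r over the 25 adults was 0.832 for Stat2 and Stat5b, 0.612 for Stat2 and Stat3, and 0.062 for Stat5a and Stat5b. Over the 24 adults without mouse 1.1 it was 0.258, 0.954 and 0.580.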

How the data were processed

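The deposited files hold raw counts per gene of sorted microglia, 1 file per mouse. The authors demultiplexed with bcl2fastq 2.20, trimmed with cutadapt 2.10, mapped to GRCm39 with STAR and counted unique exon reads with HTSeq 0.11.0. The annotation release and strand setting are not given in the sources used here. Groups follow the sample titles, and the number before the point in a title (the label number) was used to group mice, although the sources do not define it. The design text gives 1 P9-ELS mouse fewer than the labels.

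Members, gene lists and tests were chosen with earlier results of these data known. Named genes were all members and, from each list, the called genes with the largest log2 fold changes among those with a mean log2 CPM of at least 1, at most 4, besides any the sentence counts. Il6, Il12rb1, Il12rb2, Ifng, Il4, Cish, Klf4, Ccl22, the markers, and Ifit1 and Usp18 in CTR were named after their values were seen.

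Counts were fitted for all 50 mice with 1 mean per group in edgeR 4.0.16 (TMM, quasi-likelihood, R 4.3.3), and the SE is the log2 fold change over the root of F. Genes with 1 CPM in 3 mice were tested. The total per mouse sets the precision of low genes. The median log2 fold change over all genes was between -0.09 and 0.02. Exon lengths came from GENCODE for GRCm39. Permutation tests used scipy 1.17.1, with 100000 resamples at P9. Alternatives were other tests (likelihood-ratio, robust, DESeq2 1.42.0, limma 3.58.1 voom), filters, size factors, sums per label number, and leaving out mice. Correlations without mouse 1.1 and other fits of Il27ra were added after seeing the data.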

Additional observations from a re-analysis of the deposited data

Results flagged for a closer look

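Among the adult groups, the highest and lowest mice were compared with their nearest neighbours for the level of each member and for the Stat5a to Stat5b ratio, 28 values of groups in all, and 5 stood out. Chance singles out a mouse this way in about 1 of 20 groups, the nominal rate of the Dixon test used, which does not hold for Stat4, where most mice are at 0. Mouse P200_1.1_CTR_PBS was far below the others of its group in Stat5b, with 2.80 CPM against 39.1 CPM for the next lowest, and far above them in the log2 ratio of Stat5a to Stat5b, with 3.00 against -1.56. The same mouse had 1 count of Stat2 and 12854 detected genes. Mouse P200_8.2_CTR_LPS had 134 CPM of Stat2, with 82.0 CPM for the next highest. Stat4 was highest in mouse P200_8.1_CTR_PBS (0.922 CPM, next 0.183 CPM) and in mouse P200_2.1_ELS_PBS (0.310 CPM, with 0 in the other 5 mice), from 13 and 11 counts.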

How the results depend on the processing

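The rise of Stat3 after LPS was called under all 11 alternatives, with log2 fold changes of 1.77 to 2.02 in CTR and 1.65 to 1.82 in ELS, and without any 1 mouse (1.81 to 2.12 and 1.59 to 1.97). Stat2 in CTR was also called under these, at 1.94 to 3.02. For LPS in ELS, 1 member in place of 2 was called with counts summed per label number and with a replicate block, since Stat2 was lost (1.40, adjusted p = 0.0556, and 1.38, adjusted p = 0.105), and 1 to 2 were called when 1 mouse was left out. In adults, deviations from the group means were compared between the PBS and LPS mice of each label number. Their r ranged from -0.041 to 0.084 (0 of 10 numbers over 0.1), and the numbers were not taken to pair the mice. With so few mice per number this cannot show that such mice are independent, and P9 mice were not checked. The block changed no other call. For age in CTR the count of 1 member became 2 when only the groups compared were fitted (Stat6 0.41, adjusted p = 0.0265), and 0 with sums per label number and with the number as a random effect. For age in ELS the count of 2 became 1 with only the groups compared (Stat6 0.71, adjusted p = 0.0546) and was 1 to 2 when 1 mouse was left out, while Stat5a was added with the label number as a random effect (0.87, adjusted p = 0.0432). The causes were not tested. The ratio of Stat5a to Stat5b for age in CTR ranged from -1.26 to -0.33 when 1 mouse was left out. Of 1162 values of members that were not called, 74 changed sign under an alternative. Depth limits Stat4.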
